A study of Mus musculus with 7 samples.

Results

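Interferon-stimulated genes are the genes that cells switch on when an interferon reaches them, and 42 of them were followed in tumors grown from mouse embryonic fibroblasts (MEFs) without nuclear myosin 1 (NM1) and in tumors grown from the same cells after NM1 was put back. They were taken by symbol: every Ensembl gene whose GENCODE M21 symbol was on a list of 42 names was a member, 42 of the 46603 genes in the count tables. All 42 were found, and all had a mean of at least 1 CPM (counts scaled to library size) and passed the filter on low counts. No value of these libraries entered the rule. NM1 is a nuclear isoform of the motor protein encoded by Myo1c.

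The KO group held 3 libraries from tumor tissue derived from NM1 KO MEFs, a line in which NM1 was removed with CRISPR/Cas9. The KO+NM1 group held 4 libraries from tumor tissue derived from the KO line after transduction with a lentivirus that carries NM1 with HA and V5 tags, followed by neomycin selection and the picking of single clones. All hosts were female Balb/c nude mice of 16 weeks, 5 to a group. By the sample labels the tissue was taken after 30 days, while the text of the study gives a shorter time. The protocol describes injection under the skin of the right flank, while the text of the study names the mammary pad. Nude mice lack a thymus and so form few mature T cells, but they keep macrophages, NK cells and B cells. Host and injected cells are both mouse, and their transcripts cannot be told apart in these counts. Each library is 1 piece of a tumor cut into 4, and the sample descriptions name 1 tumor per condition where the methods write of tumors, so the p-values here measure the spread between pieces, which need not hold any difference between mice.

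Libraries held 24088309 to 28326568 counts, and a count of 3 in a library, the limit that a count of 0 allows, corresponds to 0.0991 to 0.148 CPM, for counting error only. Mitochondrially encoded genes took 1.81% to 2.14% of counts in KO and 5.11% to 18.5% in KO+NM1 pieces. Myo1c, whose counts do not separate the NM1 isoform, stood at 289 to 313 CPM in KO and 382 to 438 CPM in KO+NM1 pieces. KO+NM1 piece 01 stood apart from the other 3 pieces of its group. Summed B and plasma cell markers reached 4406 CPM there against 195 to 217 CPM in pieces 02 to 04, T and NK cell markers 225 against 7.16 to 10.7 CPM, and macrophage markers 2630.1 against 781 to 1089 CPM. The macrophage sum was carried by Lyz2, at 1898 CPM in piece 01 against 196 to 272 CPM in pieces 02 to 04. Adgre1, Cd14, Mrc1 and Cd163 were lowest in piece 01, and the rest of that list was highest there. Results are therefore given with all 7 libraries and, where they change, without that piece.

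Interferons fall into types that use different receptors. Type I interferons (alpha and beta) bind Ifnar1 and Ifnar2 and drive a complex that holds Stat2 and Irf9 onto the interferon-stimulated response element (ISRE), whereas interferon gamma, the type II interferon made mainly by T and NK cells, binds Ifngr1 and Ifngr2 and acts through the gamma-activated site (GAS). Irf1, itself a target of interferon gamma, also binds elements of the ISRE kind. Many genes answer both types, while the interferon-inducible GTPases of the mouse are known above all as targets of interferon gamma in macrophages, fibroblasts and other cells.

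Promoter sequence was available for 32 of the 42 members in the RefSeq windows used here (GRCm38.p6, 250 bases before to 50 after an annotated start). An ISRE core, written as GAAA, any 2 bases and GAAA and searched on both strands (as TTTC, any 2 bases and TTTC on the other), was present in 17 of these 32 members (53.1%) against 3.99% of 27025 genes with a window. A GAS, TTCNNNGAA, which reads alike on both strands, was present in 11 of 32 (34.4%) against 9.55%, and 6 of 32 (18.8%) held both against 0.614%. The stretches below are shown as examples of members called higher in KO that carry these elements, taken from several of the functional groups, with the matches in capitals, 5′ to 3′ along the strand of the gene.
Irf1: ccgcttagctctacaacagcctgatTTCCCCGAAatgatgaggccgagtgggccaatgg
Gbp2: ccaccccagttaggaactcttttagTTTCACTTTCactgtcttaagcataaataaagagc
Gbp3: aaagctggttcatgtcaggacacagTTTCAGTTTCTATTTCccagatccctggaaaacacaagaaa
Irgm1: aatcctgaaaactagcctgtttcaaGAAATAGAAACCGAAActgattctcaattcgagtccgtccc
Igtp: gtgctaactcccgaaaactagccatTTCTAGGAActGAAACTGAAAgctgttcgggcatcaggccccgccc
Irgm2: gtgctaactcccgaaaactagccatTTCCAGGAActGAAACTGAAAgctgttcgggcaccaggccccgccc
Isg15: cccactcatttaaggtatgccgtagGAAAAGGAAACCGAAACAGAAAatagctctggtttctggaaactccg
Ifit1: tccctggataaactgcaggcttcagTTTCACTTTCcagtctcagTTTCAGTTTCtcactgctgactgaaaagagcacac
Oas1a: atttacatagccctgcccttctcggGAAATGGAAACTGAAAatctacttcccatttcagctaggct
Bst2: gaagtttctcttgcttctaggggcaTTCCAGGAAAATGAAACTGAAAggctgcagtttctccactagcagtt

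The Irf1 stretch (chr11:53769899-53769957, plus strand) holds a GAS 90 to 82 bases before the start of this transcription factor gene. Those of the GTPase genes Gbp2 (chr3:142620579-142620638, plus), Gbp3 (chr3:142559974-142560039, plus) and Irgm1 (chr11:48871410-48871475, minus) hold ISRE cores, at 59 to 50, 45 to 30 and 30 to 15 bases before the start. In Igtp (chr11:58199486-58199556, plus) and Irgm2 (chr11:58214877-58214947, plus), neighbors on chromosome 11, a GAS is followed after 2 bases by an ISRE core. The 2 stretches of 71 bases differ at 2 positions, T29C and T59C, counted from 1 at the 5′ end with the base of Igtp first, and the former lies in the free bases of the GAS. Isg15 (chr4:156200850-156200921, minus) holds 3 overlapping ISRE cores, Ifit1 (chr19:34640760-34640838, plus) holds 2 apart from each other, Oas1a (chr5:120907505-120907570, minus) 2 that overlap, and in Bst2 (chr8:71537562-71537633, minus) a GAS overlaps a pair of ISRE cores.

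Of the 42 members, 25 rose in the KO tumor, 1 fell (Ifi27), and 16 did not pass both thresholds (edgeR quasi-likelihood test, Benjamini-Hochberg adjusted p under 0.05 over 16887 genes and a change of at least 2-fold). Over all genes tested, 17.1% were called higher in KO and 20.3% lower. The median log2 fold change, KO minus KO+NM1, was 1.58 over the members and 0.00 over all genes. Of the 16, Trim25, Ifi35 and Xaf1 were higher and Ifnar2 and Ifngr1 lower at the adjusted p alone, with changes under 2-fold (8.66% and 4.19% of all genes fell in these classes), and 11 missed the adjusted p. The groups did not overlap at 29 members, with KO above at 26 and below at 3, against 30.5% and 26.4% of all genes. Without KO+NM1 piece 01, 30 members were called higher and 1 lower (background 21.7% and 25.1%), and the median over all 42 was 1.82. In bulk tissue, fewer cells of a type and less RNA per cell cannot be told apart.

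**Figure D1:**
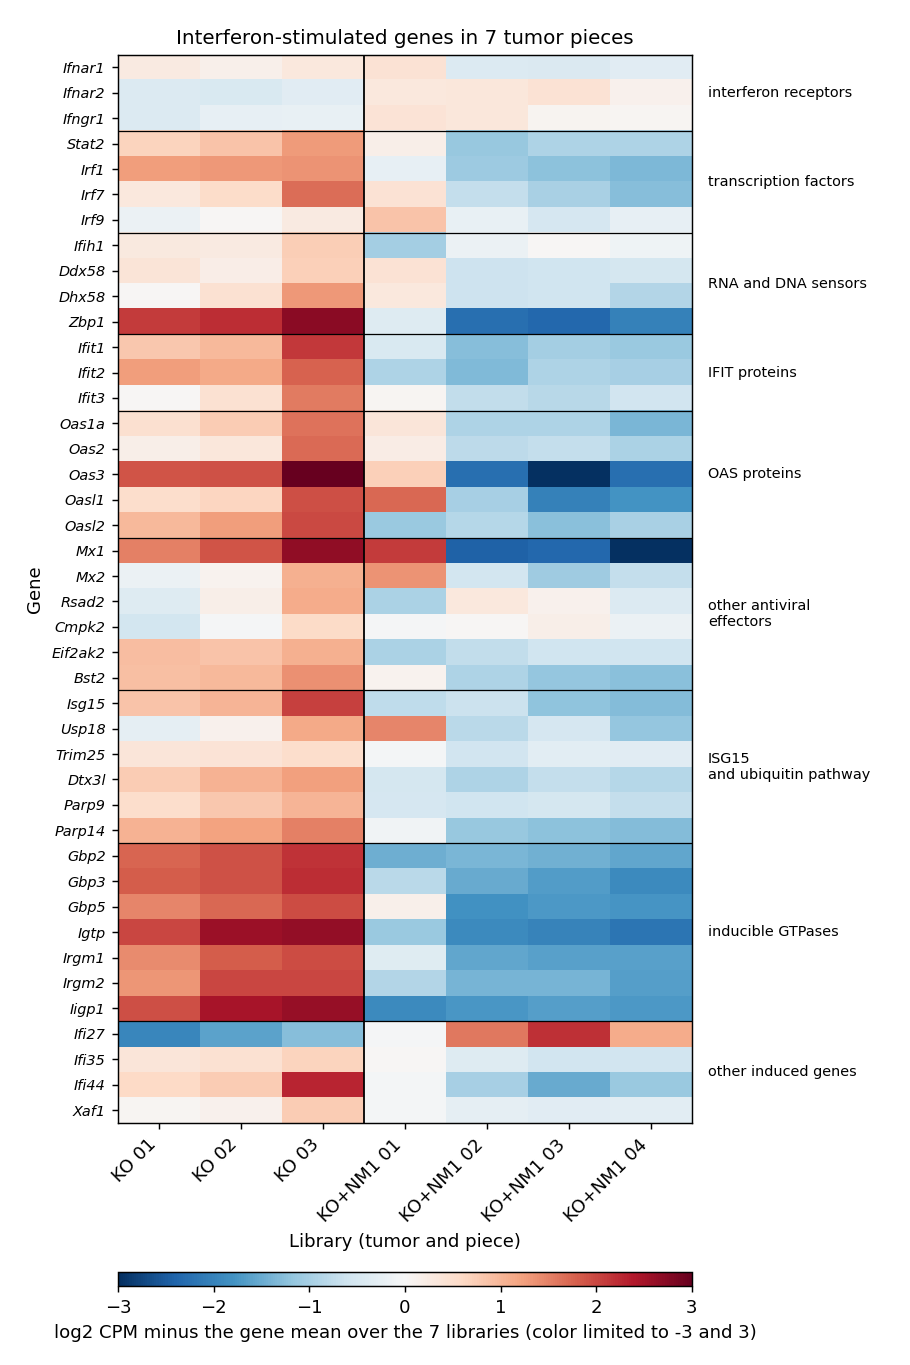
log2 CPM of the 42 members in the 7 libraries, each as the difference from the mean of the gene (color, limited to -3 and 3), grouped by role, with a line between the KO and KO+NM1 pieces. The 7 GTPase genes separate the groups in every piece, Ifi27 runs the other way, and KO piece 03 holds the highest KO value at 41 of 42 members.

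Across the 32 members with a window, an ISRE core was present in 14 of the 20 (70%) that were called higher in KO and in 3 of the 12 (25%) that were not. All 6 GTPase genes with a window held one, none of the 3 receptor genes did, and 2 of 4 OAS genes did. The 3 members with an ISRE core that were not called higher were Ifih1, Ddx58 and Rsad2. A match is a description of letters in a window of fixed length, and binding was not measured. Promoter windows of Dhx58, Zbp1, Oas2, Mx1, Mx2, Usp18, Parp9, Parp14, Iigp1 and Ifi27 were not analysed here.

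**Figure D2:**
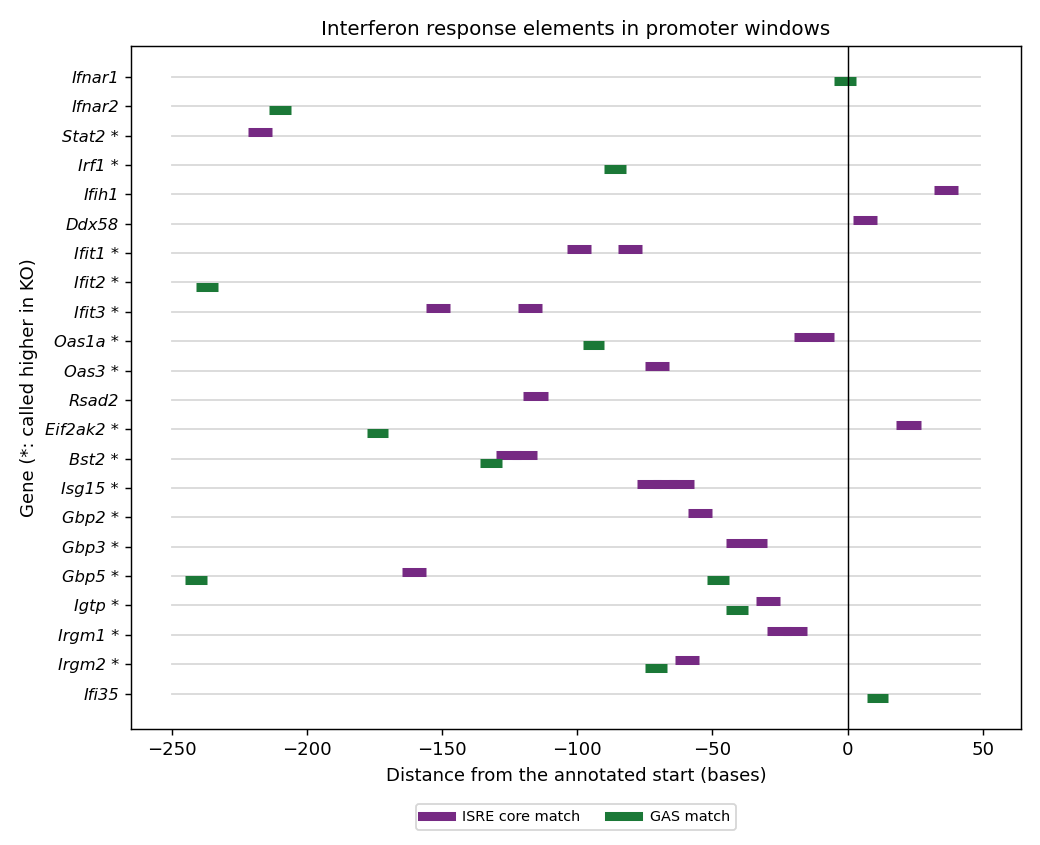
Positions of ISRE core matches (purple) and GAS matches (green) in the promoter windows of the 22 members that held any, as distance in bases from the annotated start (vertical line), with an asterisk at members called higher in KO. Matches in the GTPase genes Gbp2, Gbp3, Igtp, Irgm1 and Irgm2 lie within 75 bases before the start.

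Cell type markers moved with this contrast, in which 17.1% of all genes were called higher in KO and 20.3% lower. Summed macrophage markers spanned 3804 to 4367 CPM in KO and 781 to 2630.1 CPM in KO+NM1 pieces (9 of 12 genes called higher, 1 lower), and T and NK cell markers 279 to 348 against 7.16 to 225 CPM (2 of 12 higher). Plasmacytoid dendritic cell markers, of cells that make type I interferon, summed to 116 to 205 against 294 to 1226 CPM (1 of 9 higher, 3 lower). The sum was carried by Tcf4, at 89.3 to 109 CPM in KO and 233 to 282 CPM in KO+NM1 pieces. Ly6d added to it in KO+NM1 pieces, and Spib in KO+NM1 piece 01. In KO pieces Cox6a2, the 1 gene called higher, came next after Tcf4, at 13.6, 60.9 and 53.4 CPM against 0.0494 to 1.86 CPM in KO+NM1 pieces. Dendritic cell markers (0 of 8 higher, 2 lower) lay at 94.5 to 120.1 against 50.3 to 316 CPM. B and plasma cell markers (0 of 8 higher, 1 lower) lay at 82.7 to 134 against 195 to 4406 CPM. Outside KO+NM1 piece 01 that sum was carried by Xbp1, the 1 gene called lower. Xbp1 measured 72.9 to 90 CPM in KO and 183 to 211 CPM in KO+NM1 pieces 02 to 04. Neutrophil markers (1 of 7 higher) lay at 26.9 to 33.2 against 7.69 to 86.2 CPM. Adipocyte markers were at 137 to 325 against 4966 to 36809 CPM (10 of 10 lower), endothelial markers at 202 to 231 against 1051 to 1474 CPM (8 of 8 lower), mammary epithelium markers at 2.87 to 57.2 against 377 to 1576 CPM (5 of 8 lower), and skeletal muscle markers at 2487 to 19454 against 7.91 to 27.4 CPM (10 of 10 higher). Fibroblast markers, the type injected, were present in every piece, at 7502 to 13445 against 3132 to 14151 CPM (0 of 10 higher, 5 lower), proliferation markers at 1783 to 2325 against 71.2 to 195 CPM (6 of 6 higher), and keratinocyte markers at 3.86 to 1218 against 56.2 to 420.1 CPM (1 of 7 higher), where Flg was the only marker of any list at 0 in every library. Without KO+NM1 piece 01 the background was 21.7% higher and 25.1% lower, and the counts changed most for immune cells. For T and NK cell markers 12 of 12 were then called higher and 0 lower. For dendritic cell markers 6 of 8 were higher and 2 lower, and for plasmacytoid dendritic cell markers 5 of 9 and 3. For B and plasma cell markers 2 of 8 were higher, close to the background share, and 1 was lower (Xbp1). Macrophage markers were then 9 higher and 2 lower, fibroblast markers 1 higher and 6 lower, and mammary epithelium markers 7 lower. The part of these cell types in the interferon-stimulated genes was not tested.

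Among the interferons themselves, 1 of 21 genes on the ligand list passed the filter on low counts, and it rose. Ifng, which encodes interferon gamma, measured 7.03, 7.47 and 10.2 CPM in KO pieces 01 to 03 and 0.474, 0.0814, 0.0494 and 0.164 CPM in KO+NM1 pieces 01 to 04. KO pieces held 211, 215 and 310 counts of it and KO+NM1 pieces 13, 2, 1 and 4 counts, without overlap. The means were 8.25 ± 1.74 (SD, n = 3) against 0.192 ± 0.194 CPM (SD, n = 4), and the log2 fold change was 5.35 (SE 0.66, adjusted p = 0.00127), or 6.17 without KO+NM1 piece 01. Interferon beta (Ifnb1), all listed interferon alpha genes except Ifna4, and interferon lambda (Ifnl2, Ifnl3) had 0 counts in all 7 libraries, as did 17 ligand genes in all. The highest count of any of the 20 ligands below the filter was 4, so that at this depth a difference in them was not detectable.

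None of the receptor genes rose: 0 of 3 were called, and both Ifnar2 and Ifngr1 were lower in KO at the adjusted p alone. Ifnar1, a chain of the type I receptor, measured 98, 90.8 and 101 CPM in KO pieces 01 to 03 and 109.6, 60.7, 60.2 and 64.6 CPM in KO+NM1 pieces 01 to 04. Ifnar2, the other chain, measured 52, 49.98 and 54 CPM in KO pieces 01 to 03 and 84.7, 86.5, 91.9 and 75.2 CPM in KO+NM1 pieces 01 to 04, and Ifngr1, the ligand-binding chain of the interferon gamma receptor, 89.7, 100.0 and 102 against 157, 149.8, 127 and 123 CPM. For Ifnar2 and Ifngr1 all KO pieces lay below all KO+NM1 pieces, while for Ifnar1 KO+NM1 piece 01 lay above the KO pieces and the other 3 below them. The log2 fold changes were 0.39 (SE 0.24, adjusted p = 0.213) for Ifnar1, -0.70 (SE 0.12, adjusted p = 0.00325) for Ifnar2 and -0.52 (SE 0.14, adjusted p = 0.0202) for Ifngr1. Without KO+NM1 piece 01, Ifnar1 was higher in KO at the adjusted p alone (0.52, adjusted p = 0.00109), with no overlap. Ifnar2 shares 315 exon bases (9.46% of its exons) with Gm21970 on the same strand, and reads there may have been left uncounted or split.

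Of the 4 transcription factors that carry the response, 3 rose. Irf1 measured 525, 544 and 565 CPM in KO pieces 01 to 03 and 187, 103, 94 and 86.9 CPM in KO+NM1 pieces 01 to 04. Stat2, a partner in the type I complex, measured 152, 172 and 232 CPM in KO pieces 01 to 03 and 107, 43, 50.1 and 50.3 CPM in KO+NM1 pieces 01 to 04. For both, all KO pieces lay above all KO+NM1 pieces and KO+NM1 piece 01 was the highest of its group, and the log2 fold changes were 2.21 (SE 0.29, adjusted p = 0.00129) for Irf1 and 1.57 (SE 0.35, adjusted p = 0.00914) for Stat2. Irf7, which drives interferon alpha transcription, measured 62.5, 73.6 and 162 CPM in KO pieces 01 to 03 and 68.3, 31, 25.8 and 20.8 CPM in KO+NM1 pieces 01 to 04. Here KO+NM1 piece 01 lay within the KO range and KO piece 03 was 2.37 times the mean of the other KO pieces. The log2 fold change of Irf7 was 1.44 (SE 0.50, adjusted p = 0.0473), and leaving out any 1 library other than KO+NM1 piece 01 took its adjusted p above the threshold (0.0671 to 0.243, log2 fold change 0.79 to 1.58 over the 6 cases). Irf9, the DNA-binding partner of Stat2, measured 53.9, 62.3 and 73.2 CPM in KO pieces 01 to 03 and 109, 51.9, 43 and 51.6 CPM in KO+NM1 pieces 01 to 04. Only KO+NM1 piece 01 stood out, above every KO piece, and the log2 fold change was -0.02 (SE 0.34, adjusted p = 0.966), with a sign that turned positive under scaling by library size alone (0.11).

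Of the 4 sensors of foreign nucleic acid, Zbp1 rose and the 3 RNA helicases did not pass. Zbp1, which recognizes nucleic acid in the Z form and can trigger cell death, measured 128, 141 and 198 CPM in KO pieces 01 to 03 and 23, 6.27, 5.93 and 7.44 CPM in KO+NM1 pieces 01 to 04. Its KO pieces were all above KO+NM1 piece 01, which in turn was 3.52 times the mean of the other 3 pieces, and the log2 fold change was 3.87 (SE 0.52, adjusted p = 0.00163). The helicases Ifih1, Ddx58 and Dhx58 had log2 fold changes of 0.72, 0.69 and 1.06 (adjusted p = 0.0589, 0.0945 and 0.0596). Without KO+NM1 piece 01, Ddx58 and Ifih1 were higher at the adjusted p alone, at 0.89 and 0.41 (adjusted p = 0.00106 and 0.0478). Dhx58, which piece 01 held at 1.99 times the mean of the other KO+NM1 pieces, was then called at 1.25 (adjusted p = 0.0104).

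All 3 IFIT genes rose. Of their proteins, Ifit1 binds the ends of viral RNA. Ifit1 measured 20.1, 22.3 and 49.3 CPM in KO pieces 01 to 03 and 8.28, 4.68, 5.63 and 5.26 CPM in KO+NM1 pieces 01 to 04. Ifit2 measured 74.1, 67.8 and 106 CPM in KO pieces 01 to 03 and 16.3, 12.4, 16.4 and 15.5 CPM in KO+NM1 pieces 01 to 04, and Ifit3 15.5, 20.8 and 44 against 15.8, 9.03, 8.45 and 10.2 CPM. For Ifit1 and Ifit2 the groups did not overlap, whereas for Ifit3 KO+NM1 piece 01 lay just above KO piece 01. KO piece 03 was the highest of each, 2.33, 1.49 and 2.43 times the mean of the other KO pieces. Log2 fold changes were 2.36 (SE 0.38, adjusted p = 0.00256) for Ifit1, 2.45 (SE 0.20, adjusted p = 0.000351) for Ifit2 and 1.30 (SE 0.41, adjusted p = 0.0319) for Ifit3. The call of Ifit3 was lost without KO piece 02 or 03 or without KO+NM1 piece 02, 03 or 04, with adjusted p of 0.062 to 0.182 and a log2 fold change of 0.63 without KO piece 03. Reads of Ifit3 may have been left uncounted or shared with its near copy Ifit3b.

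Of the 5 OAS genes, whose products make the oligoadenylates that activate RNase L or resemble those that do, 4 rose. Oas1a measured 15.6, 18.9 and 34.7 CPM in KO pieces 01 to 03 and 14.5, 5.90, 5.93 and 4.32 CPM in KO+NM1 pieces 01 to 04. Oas2 measured 14, 15.6 and 40.2 CPM in KO pieces 01 to 03 and 14.5, 7.20, 7.56 and 6.41 CPM in KO+NM1 pieces 01 to 04, and Oas3 18.9, 19.2 and 40.5 against 8.39, 1.06, 0.642 and 1.07 CPM. In all 3, KO piece 03 was the highest KO piece and KO+NM1 piece 01 at the top of its own group; the groups overlapped for Oas2 and did not for Oas1a and Oas3. Log2 fold changes were 1.59 (SE 0.49, adjusted p = 0.0302) for Oas1a, 1.38 (SE 0.47, adjusted p = 0.0429) for Oas2 and 3.22 (SE 0.92, adjusted p = 0.0266) for Oas3. These 3 calls were each lost on leaving out any 1 library other than KO+NM1 piece 01, with adjusted p from 0.0523 to 0.151 for Oas1a, 0.0534 to 0.258 for Oas2 and 0.0509 to 0.0924 for Oas3. Oasl2 measured 103, 124 and 205 CPM in KO pieces 01 to 03 and 23.9, 28.8, 21.9 and 26.4 CPM in KO+NM1 pieces 01 to 04. Its groups lay far apart and KO+NM1 piece 01 sat among the other pieces, with a log2 fold change of 2.51 (SE 0.25, adjusted p = 0.000610) and a call that was kept under each of the 16 alternatives. Oasl1, at 10.3, 11 and 27.1 against 23.3, 3.54, 1.73 and 2.06 CPM, was not called (1.07, SE 0.98, adjusted p = 0.390) with a KO+NM1 piece 01 that was 9.53 times the mean of pieces 02 to 04, and without that piece it was called at 2.59 (adjusted p = 0.00224). Oas1a lies in a cluster of close copies, and reads may have been left uncounted or split among them.

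Of the 6 other antiviral effectors, 2 rose. Eif2ak2, the kinase PKR that halts translation on double-stranded RNA, measured 93.3, 88.3 and 102 CPM in KO pieces 01 to 03 and 25.4, 29.4, 32.1 and 32.4 CPM in KO+NM1 pieces 01 to 04. Bst2, the tetherin that holds budding viruses at the cell surface, measured 256, 269 and 353 CPM in KO pieces 01 to 03 and 147, 71.4, 61 and 57.1 CPM in KO+NM1 pieces 01 to 04. KO pieces of both lay above all KO+NM1 pieces, with log2 fold changes of 1.67 (SE 0.14, adjusted p = 0.000351) for Eif2ak2 and 1.80 (SE 0.36, adjusted p = 0.00594) for Bst2. The KO+NM1 pieces were alike for Eif2ak2, while for Bst2 piece 01 was 2.33 times the mean of the others.

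Mx1 and Mx2, dynamin-like GTPases that block viral replication, depended on KO+NM1 piece 01. Mx1 measured 18, 23.6 and 40.1 CPM in KO pieces 01 to 03 and 27.2, 1.18, 1.24 and 0.617 CPM in KO+NM1 pieces 01 to 04. Piece 01 reached the KO range and was 26.9 times the mean of pieces 02 to 04, in which Mx1 measured 0.617 to 1.24 CPM. With all libraries the log2 fold change of Mx1 was 1.84 (SE 1.30, adjusted p = 0.274), and without that piece 4.63 (adjusted p = 8.22e-05). Mx2, at 5.13, 6.29 and 12.2 against 14.9, 3.99, 2.77 and 3.54 CPM, was highest in KO+NM1 piece 01 and was called without it (1.07, adjusted p = 0.0318) and not with it (0.32, SE 0.67, adjusted p = 0.713). Rsad2, which encodes viperin, and Cmpk2, a mitochondrial nucleotide kinase whose gene lies beside it, were not called, at 0.58 (SE 0.44, adjusted p = 0.308) and 0.06 (SE 0.27, adjusted p = 0.867), and the sign of Cmpk2 turned under scaling by DESeq2 size factors (-0.04) or the upper quartile (-0.09). For Rsad2 the KO pieces spanned 9.37 to 26.6 CPM and the KO+NM1 pieces 6.35 to 15.3 CPM, with overlap.

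**Figure D3:**
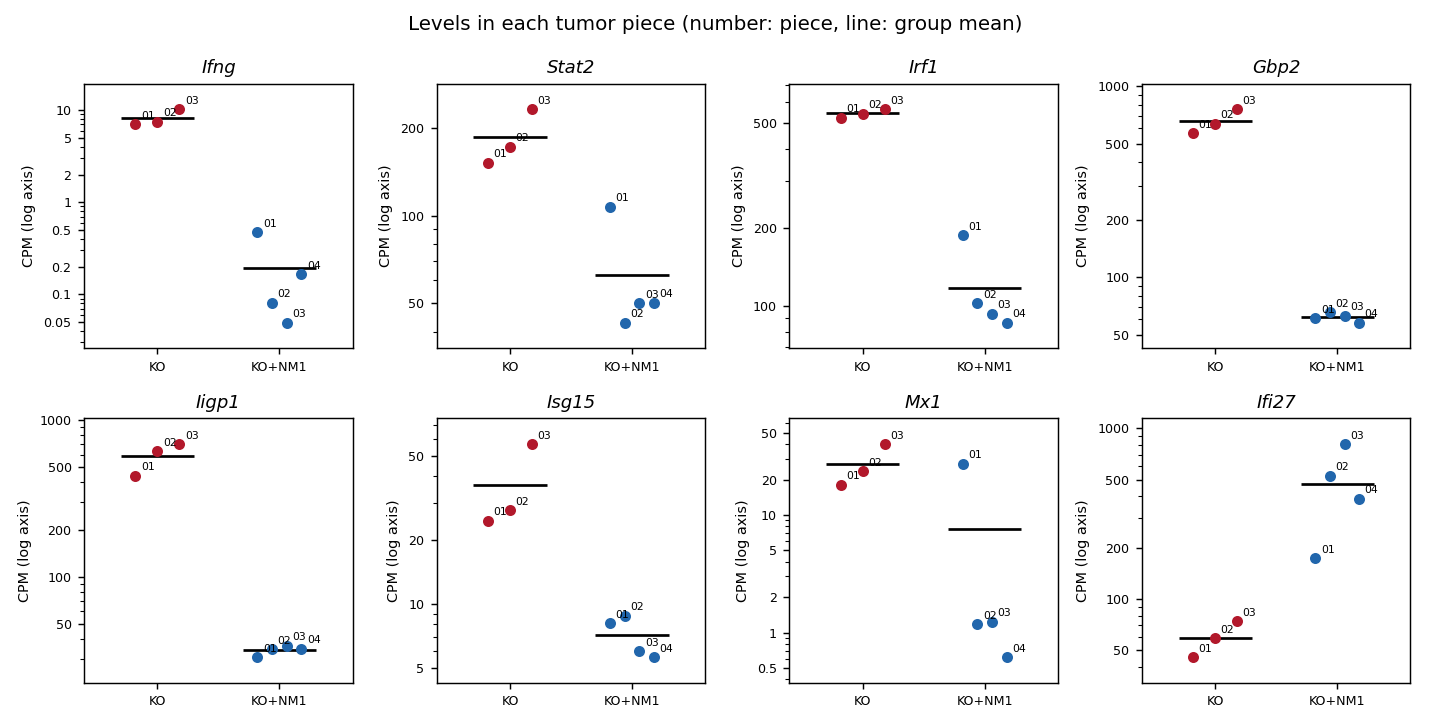
CPM (log axes) of Ifng and 7 members in each tumor piece, KO in red and KO+NM1 in blue, with the piece number beside each point and a line at the mean of the group. Mx1 in KO+NM1 piece 01 (27.2 CPM) lies among the KO pieces, whereas Gbp2 and Iigp1 differ little over the 4 KO+NM1 pieces, and Ifi27 is higher in all 4.

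Of the 6 genes of the ISG15 and ubiquitin pathway, 4 rose. Isg15, a ubiquitin-like modifier, measured 24.7, 27.7 and 57 CPM in KO pieces 01 to 03 and 8.10, 8.79, 5.98 and 5.59 CPM in KO+NM1 pieces 01 to 04. Dtx3l, a ubiquitin ligase, measured 109.6, 133 and 152 CPM in KO pieces 01 to 03 and 45, 34.5, 39.97 and 36.2 CPM in KO+NM1 pieces 01 to 04, and Parp9, its partner, 114, 139 and 161 against 56.5, 52.5, 55.7 and 49 CPM. All KO pieces were above all KO+NM1 pieces for each, and KO piece 03 had 2.17 times the Isg15 of the other KO pieces but 1.25 and 1.27 times their Dtx3l and Parp9. Parp14, an ADP-ribosyltransferase, measured 224, 249 and 308 CPM in KO pieces 01 to 03 and 101, 49.5, 45.9 and 44 CPM in KO+NM1 pieces 01 to 04. Its KO pieces were also above all KO+NM1 pieces, of which piece 01 was 2.17 times the mean of the rest. Log2 fold changes were 2.36 (SE 0.34, adjusted p = 0.00183) for Isg15, 1.76 (SE 0.16, adjusted p = 0.000493) for Dtx3l, 1.37 (SE 0.15, adjusted p = 0.000745) for Parp9 and 2.11 (SE 0.33, adjusted p = 0.00228) for Parp14. Dtx3l and Parp9 share 458 exon bases on opposite strands, and the strand setting of the counting is not given in the sources used here. Trim25, a ligase that acts on the sensor Ddx58, was higher at the adjusted p alone (0.74, SE 0.15, adjusted p = 0.00598). Usp18, which removes Isg15 from proteins and dampens type I signalling, was not called (0.29, SE 0.71, adjusted p = 0.755); it measured 10.1, 13.2 and 26.8 against 33.7, 6.96, 8.50 and 5.43 CPM, with the highest value in KO+NM1 piece 01, and was called at 1.14 without that piece (adjusted p = 0.0330).

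The interferon-inducible GTPases, which act against pathogens inside cells, rose most of all the roles by median: 7 of 7 were called, their groups did not overlap, and the median log2 fold change was 3.40, or 3.37 without KO+NM1 piece 01. Gbp2 measured 569, 634 and 757 CPM in KO pieces 01 to 03 and 60.9, 65.5, 62.7 and 57.8 CPM in KO+NM1 pieces 01 to 04. Gbp3 measured 282, 300.5 and 374 CPM in KO pieces 01 to 03 and 45.9, 28, 25 and 21.4 CPM in KO+NM1 pieces 01 to 04, and Gbp5 131, 156 and 182 against 52.7, 13.5, 14.2 and 13.8 CPM. KO+NM1 pieces were alike for Gbp2, and piece 01 was 0.983 times the mean of the other 3, while it was 1.85 times for Gbp3 and 3.81 times for Gbp5. Log2 fold changes were 3.40 (SE 0.15, adjusted p = 0.000185) for Gbp2, 3.40 (SE 0.28, adjusted p = 0.000400) for Gbp3 and 2.73 (SE 0.54, adjusted p = 0.00600) for Gbp5. Guanylate-binding protein genes are close copies of each other, and reads may have been left uncounted or split among them.

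The immunity-related GTPase genes also separated in every piece. Igtp measured 290.4, 427 and 454 CPM in KO pieces 01 to 03 and 33.7, 19.4, 18.1 and 15.8 CPM in KO+NM1 pieces 01 to 04. Irgm1 measured 261, 343 and 379 CPM in KO pieces 01 to 03 and 76.2, 33.2, 31.3 and 31.5 CPM in KO+NM1 pieces 01 to 04, and Irgm2 148, 239 and 238 against 32.2, 22.5, 22.6 and 19 CPM. KO piece 01 was the lowest KO piece of each and was still higher than all 4 KO+NM1 pieces. Iigp1 measured 440.3, 635 and 704 CPM in KO pieces 01 to 03 and 30.6, 34.3, 36.3 and 34.7 CPM in KO+NM1 pieces 01 to 04. Its KO+NM1 pieces were alike, piece 01 being 0.871 times the mean of the others. Log2 fold changes were 4.17 (SE 0.30, adjusted p = 0.000327) for Igtp, 2.93 (SE 0.36, adjusted p = 0.00120) for Irgm1, 3.12 (SE 0.25, adjusted p = 0.000364) for Irgm2 and 4.13 (SE 0.19, adjusted p = 0.000187) for Iigp1. Igtp and Irgm2 share 162 exon bases on the same strand (8.01% and 4.39% of their exons). All 7 GTPases kept their calls under each of the 16 alternatives, with Gbp2 between 3.17 and 3.59 and Igtp between 3.93 and 4.52. Macrophage marker sums, at 3804 to 4367 CPM in KO against 781 to 2630.1 CPM in KO+NM1 pieces, moved the same way, and their part was not tested.

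Of the 4 remaining members, Ifi44 rose and Ifi27 fell. Ifi27, which encodes a small interferon-induced membrane protein, measured 45.6, 58.8 and 73.9 CPM in KO pieces 01 to 03 and 174, 529, 810.3 and 386 CPM in KO+NM1 pieces 01 to 04. All KO pieces lay below all KO+NM1 pieces, and piece 01 was the lowest of the latter at 0.302 times the mean of the others. The means were 59.5 ± 14.2 (SD, n = 3) against 475 ± 267 CPM (SD, n = 4), the log2 fold change was -3.0 (SE 0.48, adjusted p = 0.00374), and it was called lower under each of the 16 alternatives, from -3.40 to -2.63. Ifi44 measured 13.9, 15.5 and 44.6 CPM in KO pieces 01 to 03 and 8.72, 4.60, 3.21 and 4.23 CPM in KO+NM1 pieces 01 to 04. KO piece 03 was 3.03 times the mean of the other KO pieces, the widest such ratio of the 42 members, and the log2 fold change was 2.25 (SE 0.52, adjusted p = 0.0111). Ifi35 and Xaf1 were higher at the adjusted p alone, at 0.86 (SE 0.19, adjusted p = 0.00816) and 0.59 (SE 0.20, adjusted p = 0.0435), without overlap. Ifi35 shares 290 exon bases (16.8% of its exons) with Gm11626 on the opposite strand.

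**Figure D4:**
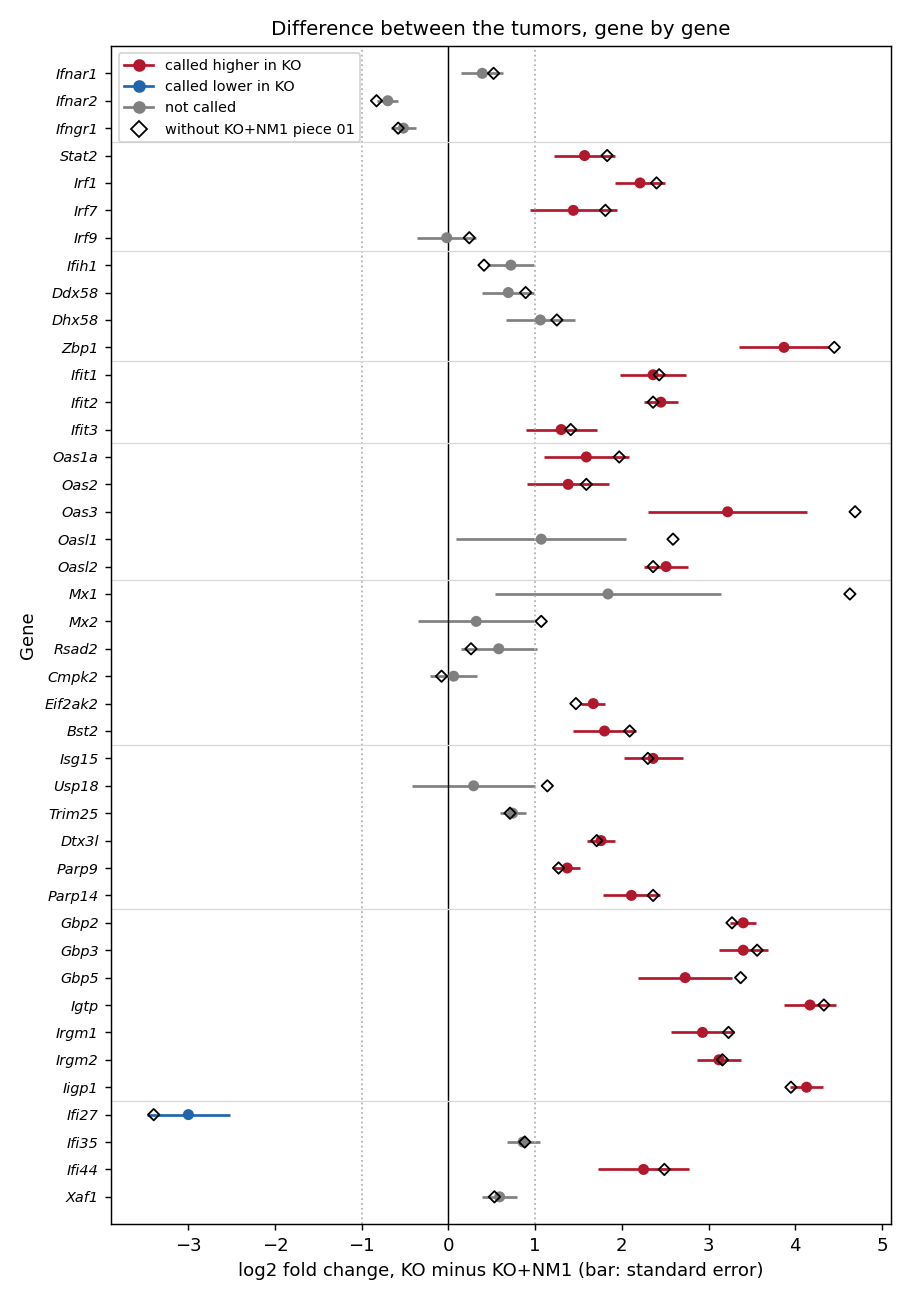
log2 fold change, KO minus KO+NM1, of the 42 members with all 7 libraries (circles, bars are SE) and without KO+NM1 piece 01 (diamonds), in red where called higher, blue where called lower and gray where not called, with dotted lines at 2-fold. The GTPases lie between 2.73 and 4.17, and Mx1, Oasl1 and Oas3 move furthest when that piece is left out.

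Levels were compared between genes as CPM per kilobase of exon. Over all 7 libraries Ifi27, Bst2 and Gbp2 were the highest of the 42, at 202, 192 and 125 CPM per kb. In KO pieces Bst2 (324), Gbp2 (259.6) and Igtp (193) led, and in KO+NM1 pieces Ifi27 stood at 324 against 93.2 for Bst2 and 24.5 for Gbp2. Ifi27 in KO pieces had 40.5 CPM per kb.

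Pieces of the KO tumor also differed among themselves. KO piece 03 held the highest KO value at 41 of 42 members, all but Irgm2, against 27.8% of all genes, and KO piece 01 the lowest at 36 of 42 (36.7% of all genes). The ratio of piece 03 to the mean of pieces 01 and 02 had a median of 1.40 over the members and 0.99 over all genes, and it reached 1.5 at 17 of 42 members against 7.6% of all genes. All 5 OAS genes were among these 17, with ratios of 1.81 to 2.71, as were Ifit1, Ifit3, Isg15, Usp18, Irf7 and Ifi44. None of the 7 GTPases (ratios 1.23 to 1.31) and none of the 3 receptors (1.06 to 1.07) was. Of the 17 members, 9 were called higher between the tumors, as were 16 of the other 25. Macrophage marker sums were 3804, 3938 and 4367 CPM in KO pieces 01 to 03 and fibroblast marker sums 8910.4, 7502 and 13445 CPM, and their part was not tested. Without KO piece 03, 20 members were called higher (13.1% of all genes) in place of 25 (17.1%). The median log2 fold change over all 42 was then 1.20.

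Within the KO+NM1 tumor, piece 01 was the highest piece at 31 of 42 members, against 43.2% of all genes. Its ratio to the mean of pieces 02 to 04 had a median of 1.81 over the members and 0.99 over all genes. Mx1 (26.9 times), Oasl1 (9.53), Oas3 (9.09), Usp18 (4.84) and Mx2 (4.34) led. The piece was lower than the others at Ifi27 (0.302 times), Rsad2 (0.50) and Ifih1 (0.529). At Gbp2, Iigp1, Oasl2 and Eif2ak2 the ratio was 0.983, 0.871, 0.932 and 0.812. All 4 transcription factors were higher there, at 1.97 to 2.64 times. These are ratios of 1 piece, with no replicate. The B cell and T cell marker sums given above, and the macrophage sum through Lyz2, were also higher in that piece than in pieces 02 to 04. Their part was not tested.

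**Figure D5:**
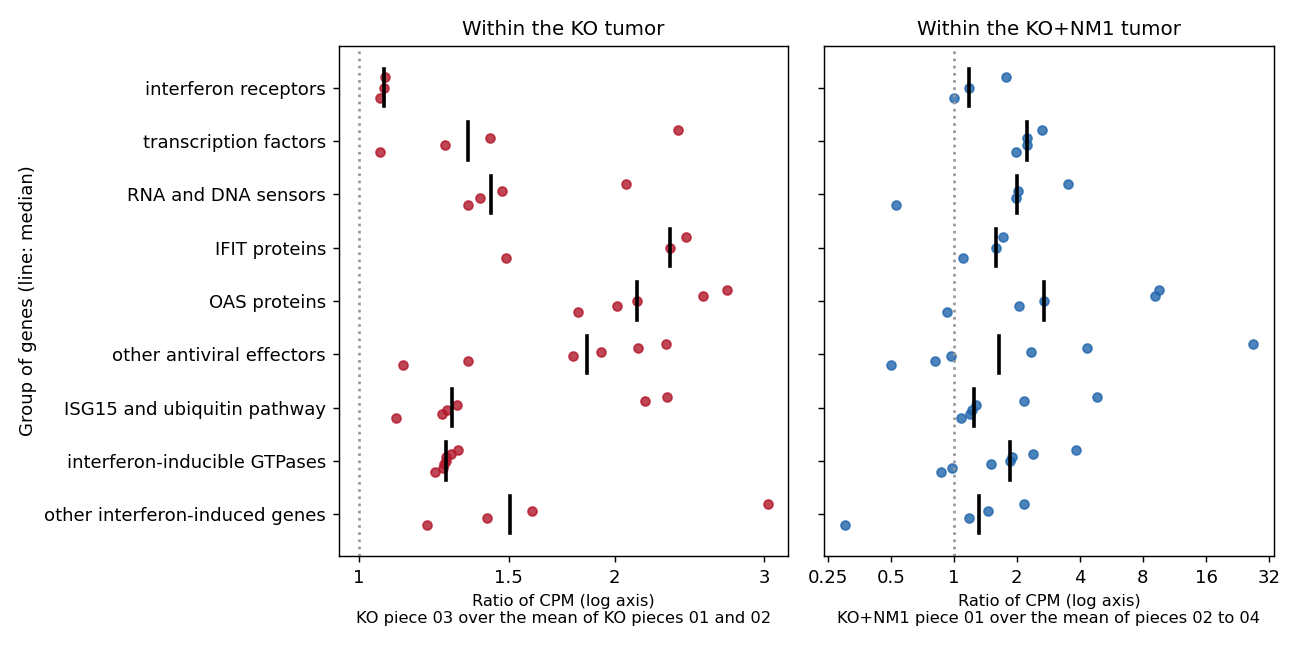
Ratio of CPM (log axes) of KO piece 03 to the mean of KO pieces 01 and 02 (left) and of KO+NM1 piece 01 to the mean of KO+NM1 pieces 02 to 04 (right), 1 point per member by role, with a line at the median and a dotted line at 1. OAS genes lie at 1.81 to 2.71 on the left and the 7 GTPases at 1.23 to 1.31, while on the right Mx1 lies at 26.9.

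The rest of the pathway was read from further lists. Among signalling genes, the inhibitors Socs1 and Socs3 rose and Ifnlr1 fell. Socs1, a feedback inhibitor of the receptor kinases, measured 48.8, 54 and 57.6 CPM in KO pieces 01 to 03 and 26.7, 6.51, 5.43 and 6.17 CPM in KO+NM1 pieces 01 to 04. Its KO pieces were all above its KO+NM1 pieces, with a log2 fold change of 2.25 (SE 0.59, adjusted p = 0.0180), and Socs3, a related inhibitor, also rose (1.38, SE 0.19, adjusted p = 0.00144). Ifnlr1, the receptor chain for interferon lambda that epithelia carry, measured 0.533, 0.799 and 0.396 CPM in KO pieces 01 to 03 and 7.44, 13.2, 12.4 and 22 CPM in KO+NM1 pieces 01 to 04. It fell, with a log2 fold change of -4.57 (SE 0.43, adjusted p = 0.000774), and the mammary epithelium marker sums, 2.87 to 57.2 against 377 to 1576 CPM, moved the same way, a part that was not tested. Jak1, Jak2, Tyk2 and Ifngr2 did not pass, at log2 fold changes of 0.08, 0.29, -0.32 and 0.37. Without KO+NM1 piece 01, Jak1, Jak2 and Ifngr2 were higher at the adjusted p alone. Their log2 fold changes were then 0.40, 0.44 and 0.78 (adjusted p = 0.00922, 0.00553 and 0.000720), and that of Tyk2 was 0.03 (adjusted p = 0.809).

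Of 18 genes that lead to interferon production, 3 rose and none fell past both thresholds, against 17.1% and 20.3% of all genes (median 0.53). Without KO+NM1 piece 01, 7 of 18 were called higher (background 21.7%, median 0.49), Tlr9 (3.88), Tmem173 (1.92), Tlr7 (1.89) and Traf3 (1.5) joining the 3. Tlr8, an endosomal sensor of RNA, measured 12.2, 12.5 and 17.1 CPM in KO pieces 01 to 03 and 0.401, 0.244, 0.346 and 0.946 CPM in KO+NM1 pieces 01 to 04. Cgas, the sensor of cytosolic DNA, measured 39.4, 36.4 and 35.8 CPM in KO pieces 01 to 03 and 5.54, 1.71, 1.63 and 2.55 CPM in KO+NM1 pieces 01 to 04. All KO pieces of both lay above all KO+NM1 pieces, and the log2 fold changes were 4.83 (SE 0.46, adjusted p = 0.000643) for Tlr8 and 3.70 (SE 0.44, adjusted p = 0.00113) for Cgas. Ikbke, a kinase that activates Irf3 and Irf7, was the third (2.07, SE 0.35, adjusted p = 0.00300). Of 6 other interferon regulatory factors, 0 were called higher and 0 lower with all libraries (median -0.61). Without KO+NM1 piece 01, 2 were called higher, Irf5 (2.05) and Irf8 (2.82), and 1 lower. The background was then 21.7% and 25.1%, and the median of the 6 was -0.37. Irf3, which activates interferon transcription, was lower at the adjusted p alone (-0.96, SE 0.25, adjusted p = 0.0186).

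Of 72 further interferon-stimulated genes, 69 were tested, 22 rose and 1 fell (background 17.1% and 20.3%), with a median log2 fold change of 0.90. Without KO+NM1 piece 01, 39 rose and 1 fell (background 21.7% and 25.1%, median 1.34). Slfn9, of the Schlafen family, measured 79.7, 53.1 and 79.3 CPM in KO pieces 01 to 03 and 1.57, 0.692, 1.14 and 1.77 CPM in KO+NM1 pieces 01 to 04. Its groups lay far apart, with a log2 fold change of 5.77 (SE 0.33, adjusted p = 0.000225). Slfn1 was called with the largest fitted change, on 47, 64 and 132 counts in KO pieces and 2, 0, 0 and 0 in KO+NM1 pieces, and no fold is given for so few counts. Ifi27l2a, a relative of Ifi27, fell: it measured 19.3, 30.9 and 46 CPM in KO pieces 01 to 03 and 179, 1357, 1169 and 906 CPM in KO+NM1 pieces 01 to 04, without overlap, with a log2 fold change of -4.81 (SE 0.64, adjusted p = 0.00264). Adipocyte marker sums were 137 to 325 CPM in KO and 4966 CPM in KO+NM1 piece 01 against 26796 to 36809 CPM in KO+NM1 pieces 02 to 04. Like Ifi27 and Ifi27l2a, they were lowest in the KO pieces, intermediate in KO+NM1 piece 01 and highest in pieces 02 to 04. Endothelial marker sums (202 to 231, 1051 and 1278 to 1474 CPM) and mammary epithelium marker sums (2.87 to 57.2, 377 and 1185 to 1576 CPM) followed the same order. The part of these cell types was not tested.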

How the data were processed

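RNA-seq libraries were prepared by the authors from homogenized tumor pieces (NEBNext Ultra II, NextSeq). Per the methods and the submitters' processing notes, the authors trimmed reads with Trimmomatic 0.36, kept intact pairs, aligned them to GRCm38 with HISAT2 2.0.4, sorted them with SAMtools 0.1.19 and counted them per Ensembl gene with HTSeq-count. The deposited values are raw counts. Annotation release and strand setting are not given in the sources used here.

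Symbols and exon lengths were taken from GENCODE M21 (46091 of 46603 IDs had a symbol). Genes were filtered with filterByExpr (minimum count 10), scaled by TMM and tested with the edgeR 4.0.16 quasi-likelihood test in R 4.3.3 over all 16887 genes, 3 KO against 4 KO+NM1 libraries. Adjusted p-values are Benjamini-Hochberg values over all genes, and calls also needed a log2 fold change of 1 in size, as in the methods of the study. The biological coefficient of variation was 46.7%. CPM used TMM-scaled library sizes. Settings tried besides were other scalings, filters, DESeq2 1.42.0, limma 3.58.1 (voom), other thresholds, piece number as a block and each library left out. The fit was tested on simulated data. No 2 libraries agreed within sampling noise.

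Members and lists were chosen with earlier results of these data known. Per-library values are given for called members, receptors, transcription factors and the 3 highest per length, and for the 2 largest changes each way in each pathway list, among called genes averaging 1 CPM or more. Some genes of the pathway lists are not reported here. WT tissue was not analysed here.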

Additional observations from a re-analysis of the deposited data

Results flagged for a closer look

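In 6 of the 42 members, KO+NM1 piece 01 lay so far above the other 3 KO+NM1 pieces on the log2 CPM scale that its gap to the nearest of them, divided by the range of the group, passed the 95% critical value of Dixon's test for 4 samples. The ratio was 0.962 for Gbp5, 0.933 for Irgm1, 0.920 for Ddx58, 0.883 for Ifnar1, 0.859 for Parp14 and 0.832 for Zbp1. Chance alone passes this value in about 1 in 20 groups. The members share the same 4 pieces and are not independent groups. The share of all genes that pass was not counted, so the 6 cannot be read as an excess. For Gbp5 the piece measured 52.7 CPM against a mean of 13.8 ± 0.357 CPM (SD, n = 3) in pieces 02 to 04, and for Irgm1 76.2 against 32 ± 1.07 CPM. Gbp5, Irgm1, Parp14 and Zbp1 were called higher in KO with and without this piece, and Ifnar1 and Ddx58 with neither.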

How the results depend on the processing

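Over the alternatives tried, 18 (glmTreat against a 2-fold change) to 32 (limma voom) of the 42 members were called higher, and 20 to 30 on leaving out each library in turn. The share of all genes called higher was 10.1% with glmTreat, 24.3% with limma voom and 12.5% to 21.7% on leaving out each library. The count of members called lower was 1 throughout, except that the adjusted p alone gave 3 (24.5% of all genes). The median log2 fold change, 1.58, was 2.05 with limma voom and ranged from 1.20 to 1.82 on leaving out 1 library. Scaling moved the median of all genes by 0.17 (library size alone), -0.16 (upper quartile) and -0.10 (DESeq2 size factors). With piece number as a replicate block 18 members and 14.4% of all genes were called higher. The 7 members that lost the call were Irf7, Stat2, Ifit3, Ifi44, Oas1a, Oas2 and Oas3 (adjusted p 0.0523 to 0.181). The numbers share only a label (correlations of same-numbered pieces 0.0802, 0.102 and -0.0165).

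Cmpk2 changed sign to -0.04 (DESeq2 size factors, every gene with 1 count), -0.09 (upper quartile), -0.03 (DESeq2 Wald test) and -0.06 (replicate block), and ranged from -0.39 to 0.18 on leaving out 1 library, below 0 without KO piece 02 or 03 or KO+NM1 piece 01 or 04. Irf9 changed to 0.11 (library size alone), 0.41 (voom, adjusted p = 0.0194), 0.01 (replicate block) and 0.24 (without KO+NM1 piece 01). Without KO piece 03, Mx2, Rsad2 and Usp18 changed to -0.25, -0.06 and -0.34, the lower ends of ranges that reached 1.07, 0.75 and 1.14 on leaving out 1 library. The causes were not tested. Of 672 single-gene values over 16 alternatives, 599 kept direction and side of the threshold, 44 lost the threshold, 13 gained it and 16 changed sign.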
